A study of Mus musculus with 4 samples.

Results

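The heat shock genes followed here were 10 named members of the chaperone system, Hsf1, Hspa8, Hspa1a, Hspa1b, Dnajb1, Hsph1, Hsp90aa1, Hspd1, Hspe1 and Hspb1, of 21728 protein-coding genes on the autosomes and chromosome X. Their chromatin accessibility was read in single-nucleus ATAC-Seq (scATAC-Seq) profiles of mouse hepatocytes around partial hepatectomy (PHx), surgery that takes out a large part of the liver. The genes were chosen by their counts, called peak length and share of open nuclei in these same libraries, so the levels below are descriptions and no test was run on them. Because Hspd1 and Hspe1 lay in the same called peak in every library, the 10 genes made up 9 separate measurements.

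All libraries came from livers of C57BL/6J males on a normal diet, with an age of 10 to 12 weeks given for every group, and no transgene or other treatment was given to any group. The PHx 0 h library came from undamaged liver, and the other libraries were taken 48, 72 and 96 h after the surgery. Hepatocytes were freed by collagenase perfusion, a step that controls and operated animals shared, and their nuclei were profiled with the 10x Chromium scATAC chemistry. Each time point had 1 library, so time, animal, perfusion, library and sequencing depth cannot be told apart. The 48 h library came from 1 mouse and the 0 h library from 1 hepatocyte preparation, and the sources used here do not say whether animals were pooled for 72 and 96 h.

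Cells answer misfolded protein by raising a set of chaperones, and heat shock factor 1, encoded by Hsf1, is the transcription factor that switches most of them on. It binds heat shock elements, which are inverted repeats of the letters GAA in the promoters of its target genes. HSP70 proteins fold clients in cycles that J-domain proteins start and nucleotide exchange factors end, HSP90 finishes signalling proteins, the HSP60 and HSP10 chamber works in mitochondria, and small heat shock proteins hold clients that have begun to unfold.

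Depth fell from one library to the next along the time course. With nuclei taken as barcodes holding at least 1000 counts, the libraries held 3977, 3892, 4256 and 3224 nuclei at 0, 48, 72 and 96 h. The median count per nucleus was 26005, 11629, 4841 and 3681.5 in the same order. The summed accessibility of 10 hepatocyte markers lay between 4039 and 5726 counts per 1000000 counts of the library (CPM), and none of them was at 0 in any library. Markers of other liver cells summed to 236 to 479 CPM for 10 endothelial genes, 110 to 240 CPM for 8 Kupffer and myeloid genes, 79.6 to 158 CPM for 8 stellate genes and 13.8 to 33.2 CPM for 4 biliary genes. Of these 30 markers of other cells, 9, 3, 2 and 10 had no called peak at 0, 48, 72 and 96 h, among them the Kupffer gene Vsig4 in every library and Adgre1, Clec4f, Lyz2, Cdh5, Krt19 and Krt7 at both 0 and 96 h. Between 681 and 882 barcode sequences occurred in both libraries of a pair, of which 27 to 60 were nuclei in both.

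Peaks had been called in each library on its own, so a gene's counts rest on how much of it was called. The called length was 153.6, 179.0, 141.2 and 60.9 Mb at 0, 48, 72 and 96 h. Counts outside called peaks are not in the matrices, and a stretch without a peak has an unknown signal rather than none.

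Promoter sequence from RefSeq (build GRCm38.p6, 250 bases before to 50 after each start site) was found for 7 of the 10 genes, and Hspa8, Hsp90aa1 and Hsf1 were not among them. Promoters were searched on both strands for a pair of inverted units, GAANNTTC, and for the triple heat shock element, in which 2 free letters and another GAA follow that pair. Every triple therefore contains a pair. The triple occurred in 3 of the 7 genes, Hsph1, Hspd1 and Hspe1, against 0.662% of all 27025 genes with a promoter in the table. Hspd1 and Hspe1 hold the same element, so these 3 genes hold 2 separate ones. The pair occurred in 6 of the 7 genes, all but Dnajb1, against 9.04% of all genes. Counted by promoter, the triple was in 4 and the pair in 7 of the 10 promoters of these genes, against 0.603% and 7.86% of all 32851 promoters. The sequences below show the range among genes whose accessibility is described next, from a double triple at the Hspd1 and Hspe1 promoter to no match at Dnajb1. Capitals mark every match, the sequences run 5′ to 3′ on the strand of the gene, and for Hsph1, whose match begins 15 bases after the further downstream of its 2 RefSeq start sites, 30 bases around it are given.
Hspe1, plus strand, chr1:55087898-55088147: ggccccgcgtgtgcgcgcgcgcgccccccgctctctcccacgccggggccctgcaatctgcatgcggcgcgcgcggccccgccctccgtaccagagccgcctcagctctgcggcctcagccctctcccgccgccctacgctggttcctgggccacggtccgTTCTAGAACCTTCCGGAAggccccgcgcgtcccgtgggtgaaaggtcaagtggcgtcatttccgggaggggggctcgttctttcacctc
Hsph1, minus strand, chr5:149636280-149636309: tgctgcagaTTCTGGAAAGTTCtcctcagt
Hspa1b, minus strand, chr17:34959239-34959488: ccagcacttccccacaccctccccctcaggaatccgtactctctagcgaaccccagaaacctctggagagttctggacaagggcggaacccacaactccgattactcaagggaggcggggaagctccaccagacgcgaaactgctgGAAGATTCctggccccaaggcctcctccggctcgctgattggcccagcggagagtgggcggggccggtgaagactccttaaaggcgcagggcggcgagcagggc
Hspb1, plus strand, chr5:135887669-135887918: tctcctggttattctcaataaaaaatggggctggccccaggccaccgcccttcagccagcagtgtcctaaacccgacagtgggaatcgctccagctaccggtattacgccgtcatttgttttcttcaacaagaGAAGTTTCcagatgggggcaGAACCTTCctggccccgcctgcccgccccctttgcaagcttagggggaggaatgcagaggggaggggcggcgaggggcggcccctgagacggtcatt
Dnajb1, plus strand, chr8:83607925-83608174: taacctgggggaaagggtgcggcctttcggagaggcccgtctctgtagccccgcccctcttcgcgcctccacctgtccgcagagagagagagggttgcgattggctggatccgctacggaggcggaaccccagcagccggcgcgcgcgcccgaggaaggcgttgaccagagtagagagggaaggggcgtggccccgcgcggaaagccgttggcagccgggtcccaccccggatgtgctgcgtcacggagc
The 18 capital letters of Hspe1 hold 2 overlapping triples, 1 read on each strand, and begin 89 bases before its start site. They also lie before a start site of Hspd1, which is transcribed the other way from the same region. The Hspa1b pair begins 104 bases before the start site, and the Hspa1a promoter holds the same letters at the same place, with 3 of 250 bases differing between the genes. A match is a description of letters and not a binding site.

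By 96 h counts in called peaks were at least 1.5-fold above 0 h at 7 of the 10 genes, while Hsf1 itself measured 24.7 CPM at 0 h and 21.4 at 96 h, an order that turned per kb of called peak. Values are CPM in peaks over the gene body plus 2 kb upstream, with 95% Poisson intervals that cover counting error only, as do all intervals given here. At least 1.5-fold above 0 h were 2 of 10 genes at 48 h (Dnajb1 and Hsp90aa1), beside 8.9% of the 11488 genes tested. With each peak of a nucleus counted as present or absent, both missed that limit, with log2 ratios of 0.56 for Dnajb1 and 0.52 for Hsp90aa1, and per kb Hsp90aa1 missed it too (0.24). At 72 h the number was 8 of 10, all but Hsf1 and Hspa8, beside 13.4%, and per kb it was 5 of 10, beside 6.9%. At 96 h the number in CPM was 7 of 10, all but Hsf1, Hspa1a and Hspb1, beside 15.6%. The percentages are over genes with a mean of at least 20 CPM, and among the 8 members that reached it the numbers were 2, 6 and 7. Hspa1a was the 1 gene at least 1.5-fold below 0 h, at 48 h (8.18% of all genes) and at 96 h (18.3%), and none of the 10 was at 72 h (18.2%). These genes were listed because of such values, and nothing is read from the shares. The median log2 ratio to 0 h of the 10 genes was 0.28, 1.12 and 1.28 at 48, 72 and 96 h, against -0.08, -0.08 and 0.05 over all genes tested. With the median of genes of near-equal called length set to 0, that of the 10 genes was 0.50 at 96 h. In nuclei of 2000 to 6000 counts it was 0.11 at 48 h. Hspa1a and Hspb1, with means of 8.49 and 16.3 CPM over the libraries, were the members that did not reach a mean of 20 CPM.

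**Figure D1:**
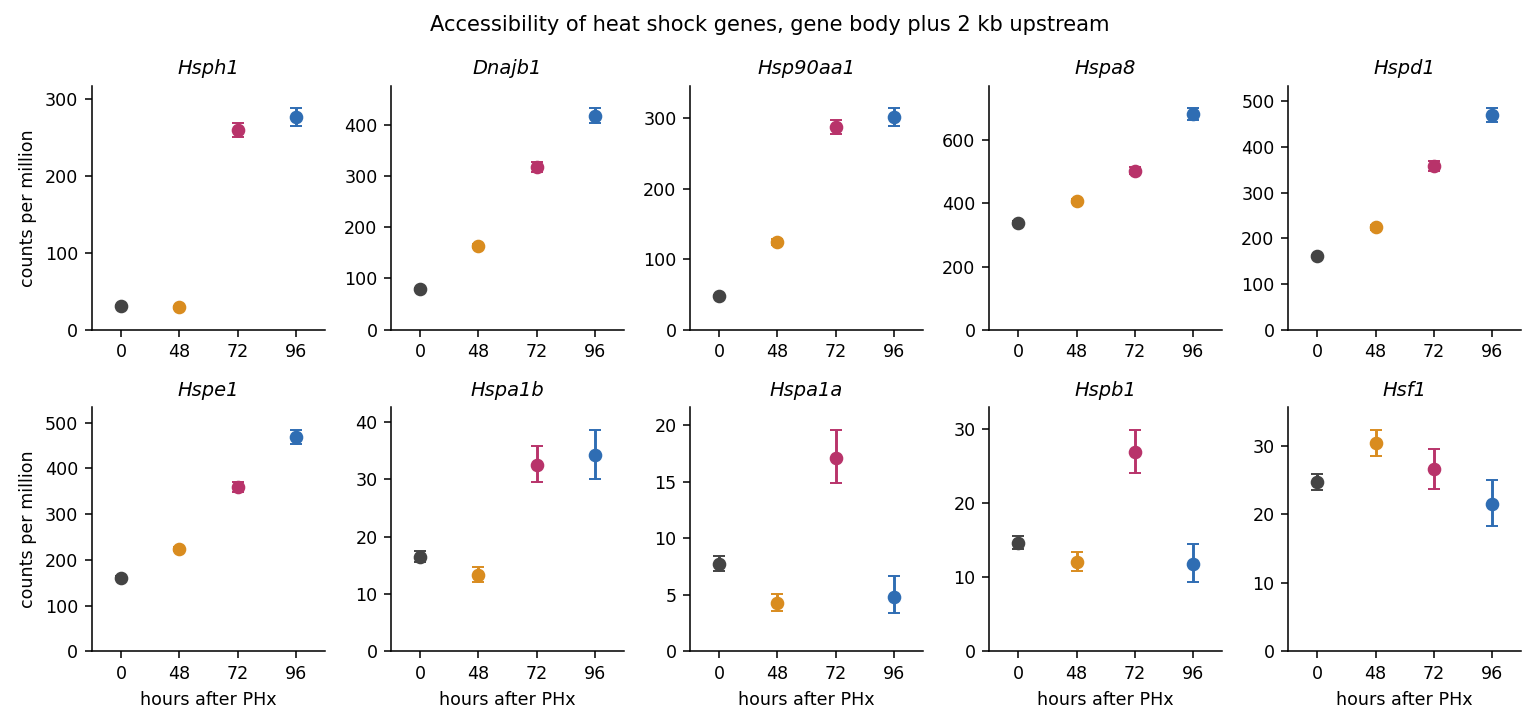
CPM in peaks over each gene body plus 2 kb upstream (y axis, from 0, own scale per gene) against hours after PHx (x axis), with 1 point per library and 95% Poisson intervals that cover counting error only. Dnajb1, Hspa8 and the shared Hspd1 and Hspe1 values were higher in each later library, Hsph1 was level at 0 and 48 h (30.8 and 29.1 CPM) and higher at 72 and 96 h (260.0 and 276 CPM), and Hsf1 lay between 21.4 and 30.3 CPM.

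Hsf1 (chr15:76477422-76501913, plus strand) encodes the factor that activates the others. Its accessibility was 24.7, 30.3, 26.5 and 21.4 CPM at 0, 48, 72 and 96 h. The 0 and 96 h intervals overlapped (23.5 to 25.9 and 18.2 to 25.0 CPM), and the 48 h interval of 28.4 to 32.3 lay above both. The peak over its 5′ end, which also takes in the 5′ end of Bop1, held 21.99, 16.6, 20.1 and 21.4 CPM, so this peak was lowest at 48 h and its levels at 0 and 96 h did not separate. The excess at 48 h lay at the other end of the gene, in a peak of 9.02 CPM that reached into Dgat1 and was not called as such in the other libraries. The direction at Hsf1 rested on the scale. Per kb of called peak it measured 8.44, 4.27, 7.12 and 18.2 CPM, lowest at 48 h and highest at 96 h, with log2 ratios to 0 h of -0.99 and 1.11 at those times. Its called length was 2923, 7106, 3729 and 1179 bp.

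Hspa8 (chr9:40800984-40810087, plus strand), the constitutive cytosolic HSP70, was the most accessible of the genes in every library. It measured 339, 407, 504 and 683 CPM at 0, 48, 72 and 96 h, each library above the one before, and no interval overlapped another. The fold over 0 h was 1.2 (1.18 to 1.23), 1.49 (1.45 to 1.53) and 2.02 (1.96 to 2.08). A single peak covered the gene in each library, and that peak was shorter in the later ones, with 21888, 20838, 11576 and 10546 bp. Per kb of called peak, the level was 15.5, 19.5, 43.5 and 64.7 CPM. With the median of genes of near-equal called length set to 0, the log2 ratio of Hspa8 at 96 h was 0.22 instead of 1.01, within the 1.5-fold limit.

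The stress-inducible HSP70 genes Hspa1a (chr17:34969190-34972156, minus strand) and Hspa1b (chr17:34956436-34959238, minus strand) were far less accessible. Hspa1b measured 16.5, 13.4, 32.6 and 34.2 CPM at 0, 48, 72 and 96 h, and the libraries of 72 and 96 h lay above the earlier ones without separating from each other. Hspa1a measured 7.77, 4.24, 17.1 and 4.82 CPM, highest at 72 h, with the 48 and 96 h intervals overlapping. The 5′ end and the 3′ end of these genes behaved differently. At the Hspa1b 5′ end the peak held 10.9, 8.37, 7.60 and 11.1 CPM, while the peak at its 3′ end held 5.56, 4.23, 25.0 and 23.1 CPM. At the Hspa1a 5′ end, in a peak shared with Hspa1l, the values were 4.30, 3.34 and 1.86 CPM at 0, 48 and 72 h, and no peak was called there at 96 h. The 3′ peak of Hspa1a held 3.47, 0.903, 15.3 and 4.82 CPM. The higher values of both genes at 72 h thus lay in the peaks at the 3′ end and not in those at the 5′ end. Of all 50-base words in the 2 gene bodies, 58.8% of those of Hspa1a and 62.3% of those of Hspa1b occur in the other gene, from 26 to about 2180 bases after the 5′ end, and beyond 343 bases from the 5′ end this stretch was called only at 72 h, by 3′ peaks that start 2014 bases into Hspa1a and 1510 into Hspa1b. The 250 bases before the start sites are 98.8% identical as well. A read that lies in a shared word has the same sequence in both genes. How such reads were placed was not examined, and the levels of both genes are uncertain for that reason.

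Dnajb1 (chr8:83608193-83612653, plus strand) encodes the J-domain protein that starts the HSP70 cycle under stress. It measured 79.3, 163, 317 and 417 CPM at 0, 48, 72 and 96 h. Each library lay above the one before it, with no overlap of intervals. The fold over 0 h was 2.06 (1.98 to 2.14), 4.0 (3.84 to 4.17) and 5.26 (5.03 to 5.50). One peak of nearly fixed length, 11264, 11928, 13200 and 11178 bp, covered the gene and part of the neighboring Tecr. At 96 h the median log2 ratio over genes of near-equal called length was itself 0.79, against 2.39 for Dnajb1. Tecr, which takes in the same counts, read 200.7, 261, 432 and 524 CPM. Among genes whose called length at 72 h was within 0.8 to 1.25 times that at 0 h, Dnajb1 had the second highest ratio, rank 2 of 5387, and at 96 h rank 2 of 492.

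Hsph1 (chr5:149614287-149636376, minus strand), whose product HSP110 releases nucleotide from HSP70, differed between libraries in the length of its called peaks. Its level was 30.8, 29.1, 260.0 and 276 CPM in time order. The libraries of 0 and 48 h overlapped, and those of 72 and 96 h were 8.43-fold (7.98 to 8.91) and 8.96-fold (8.43 to 9.53) above 0 h. At 0 h the only called peak was the promoter, 2451 bp long and reaching from -830 to 1620 bases relative to the 5′ end. At 48 h the promoter peak held 26.2 CPM and the other called stretches in the gene 1.85 CPM or less each. At 72 h a single peak of 26138 bp ran from -710 bases to past the 3′ end, where it reached Wdr95. At 96 h 3 peaks covered 23439 bp, with 117 CPM in that over the 5′ end, 46.2 CPM in the middle one and 113 CPM in that over the 3′ end. Per kb of called peak the level was 12.6 CPM over the 0 h promoter, 9.95 over the whole gene at 72 h and 11.8 at 96 h. The gene body at 72 and 96 h was thus counted at a density close to that of the promoter alone at 0 h. On the per kb scale Hsph1 was not higher than at 0 h (log2 ratio -0.36 at 72 h and -0.11 at 96 h). The median over all genes on that scale was 0.15 at 72 h and 1.26 at 96 h, so equal densities are not equal standing among genes. In CPM the ratio of Hsph1 ranked 17 of 11488 at 72 h and 4 at 96 h.

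Hsp90aa1 (chr12:110690605-110702728, minus strand) encodes the inducible cytosolic HSP90. It measured 48.1, 124, 287 and 301 CPM in time order. The fold over 0 h was 2.59 (2.47 to 2.71), 5.96 (5.68 to 6.25) and 6.26 (5.93 to 6.61), and the last 2 libraries did not separate. The far 5′ end, the annotated start of its longest transcript, had a small peak of 4.52, 5.60, 4.45 and 4.15 CPM that stayed level. The change lay further in, around the 5 start sites found 6333 to 7056 bases from that end and over the body behind them. There, 0 h had a start-site peak of 32.0 CPM and a separate downstream one of 11.3 CPM. By 48 h both ends were joined in 1 peak of 15997 bp holding 118 CPM, which at 72 h held 282 CPM in 16427 bp, and at 96 h 45.7 and 251 CPM in peaks of 2650 and 11720 bp. The joined peak reached the coding gene 1700001K19Rik, which takes in the same counts. Counted per kb over its peaks, Hsp90aa1 was at 5.98, 7.13, 16.5 and 20.3 CPM.

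Hspd1 and Hspe1 encode the mitochondrial HSP60 and HSP10 and lie head to head on chromosome 1 (Hspd1 on the minus and Hspe1 on the plus strand). One peak over both genes gave 161, 224, 359 and 469 CPM in time order. Each library lay above the one before, and the fold over 0 h was 1.39 (1.35 to 1.43), 2.22 (2.15 to 2.30) and 2.91 (2.80 to 3.02). The called length was close to fixed, at 24394, 23272, 23314 and 19918 bp, and among genes of near-equal called length the ratio ranked 127 of 6707, 26 of 5387 and 35 of 492 at 48, 72 and 96 h. The peak cannot say which of the genes, or whether both, contributed.

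Hspb1 (chromosome 5), which encodes a small heat shock protein, measured 14.6, 12.0, 26.8 and 11.7 CPM. It was highest at 72 h, where its promoter peak was called out to 3512 bases after the 5′ end against 1353, 1306 and 245 bases at 0, 48 and 96 h. Per kb of peak the level was 7.40, 6.39, 6.56 and 16.5 CPM in time order, and on that scale 96 h was the highest.

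**Figure D2:**
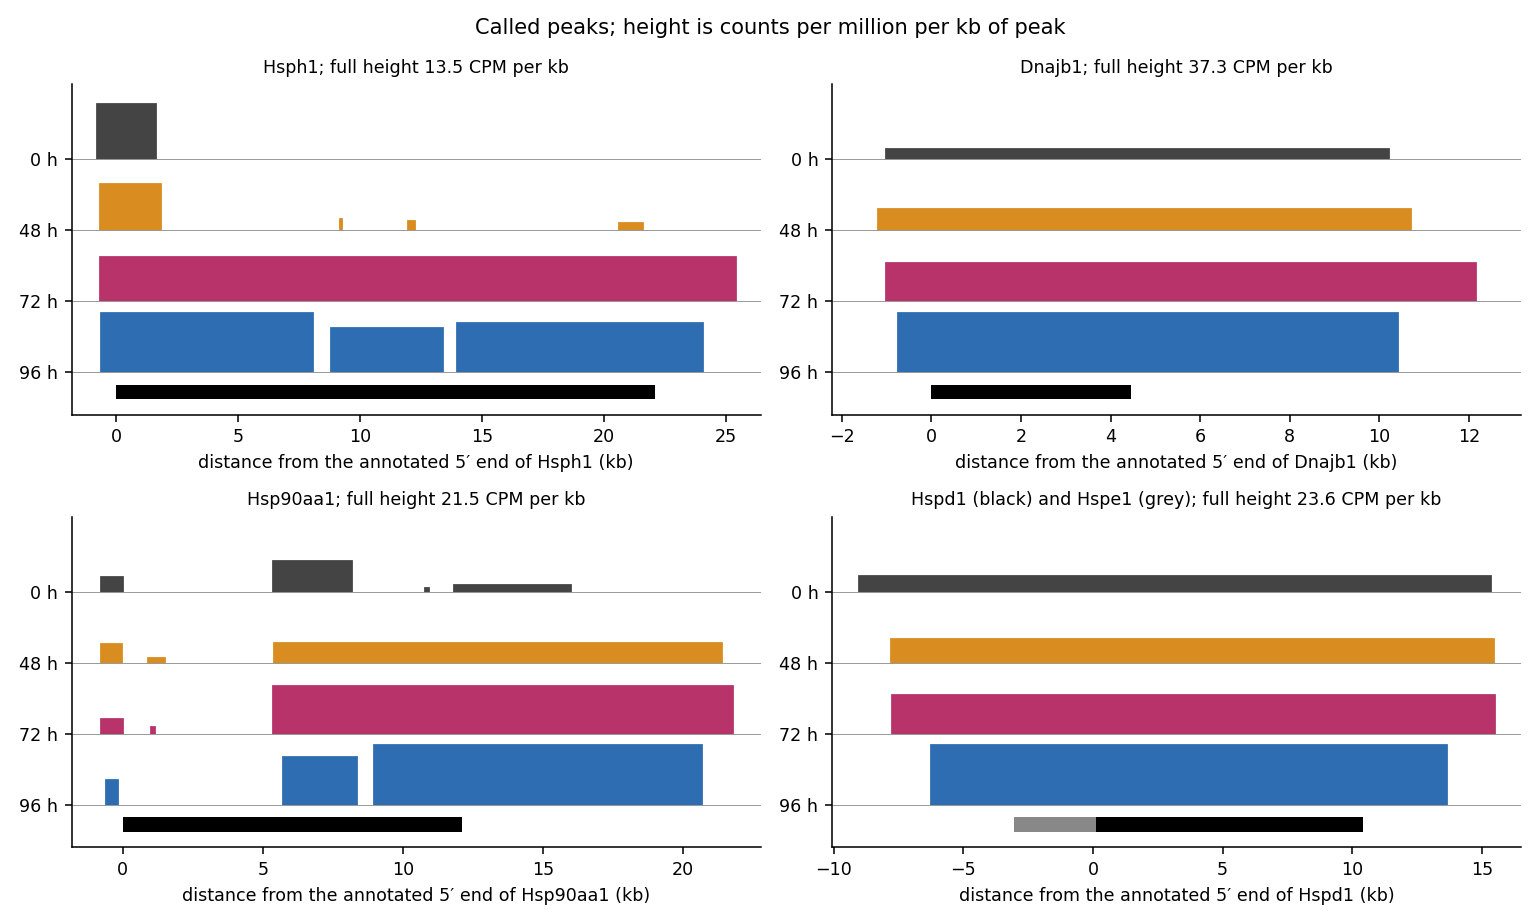
Called peaks (boxes) by distance from the annotated 5′ end in kb (x axis) for Hsph1, Dnajb1, Hsp90aa1 and the shared region of Hspd1 and Hspe1, with 1 row per library; box height is CPM per kb of peak, scaled within each panel to the value printed above it, and bars below mark the genes. Hsph1 went from a 2451 bp promoter peak at 0 h to a 26138 bp peak at 72 h, whereas Dnajb1, Hspd1 and Hspe1 kept their extent and gained height. Over all genes the median log2 ratio of CPM per kb to 0 h was 0.15 at 72 h and 1.26 at 96 h.

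Called length and counts moved together over all genes, which bears on each ratio above. Across the genes tested, the log2 ratio of counts and that of called length had a Pearson correlation of 0.86, 0.89 and 0.84 at 48, 72 and 96 h, given as a description over genes that share libraries and depth. Among genes of near-equal called length, 1.03%, 6.2% and 67.7% were at least 1.5-fold above 0 h at the 3 times, with a median log2 ratio of -0.18, 0.06 and 0.79. At 96 h that group shrank to 492 genes, most of them higher than at 0 h. Of the heat shock genes in it, 1 of 5 was past 1.5-fold at 48 h, 3 of 3 at 72 h and 4 of 4 at 96 h. Against that median Dnajb1 stood 1.22, 1.93 and 1.60 log2 units higher at 48, 72 and 96 h, and Hspd1 with Hspe1 0.65, 1.09 and 0.75. Hspa8 could be read this way at 48 h alone (0.44 higher) and Hspa1b at 48 and 96 h (-0.11 and 0.24). Hsph1, Hsp90aa1, Hsf1 and Hspa1a did not keep their called length at any time, and Hspb1, which did at 48 h (1975 and 1886 bp), was below the 20 CPM mean. On the per kb scale 1, 5 and 9 of the 10 genes were at least 1.5-fold above 0 h, beside 0.601%, 6.9% and 93.9% of all genes, and 2, 0 and 0 were as far below, beside 9.01%, 1.97% and 0.0611%. On that scale the 96 h share of the members is close to that of all genes. The 5 above at 72 h were Dnajb1, Hspa8, Hspd1, Hspe1 and Hsp90aa1.

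**Figure D3:**
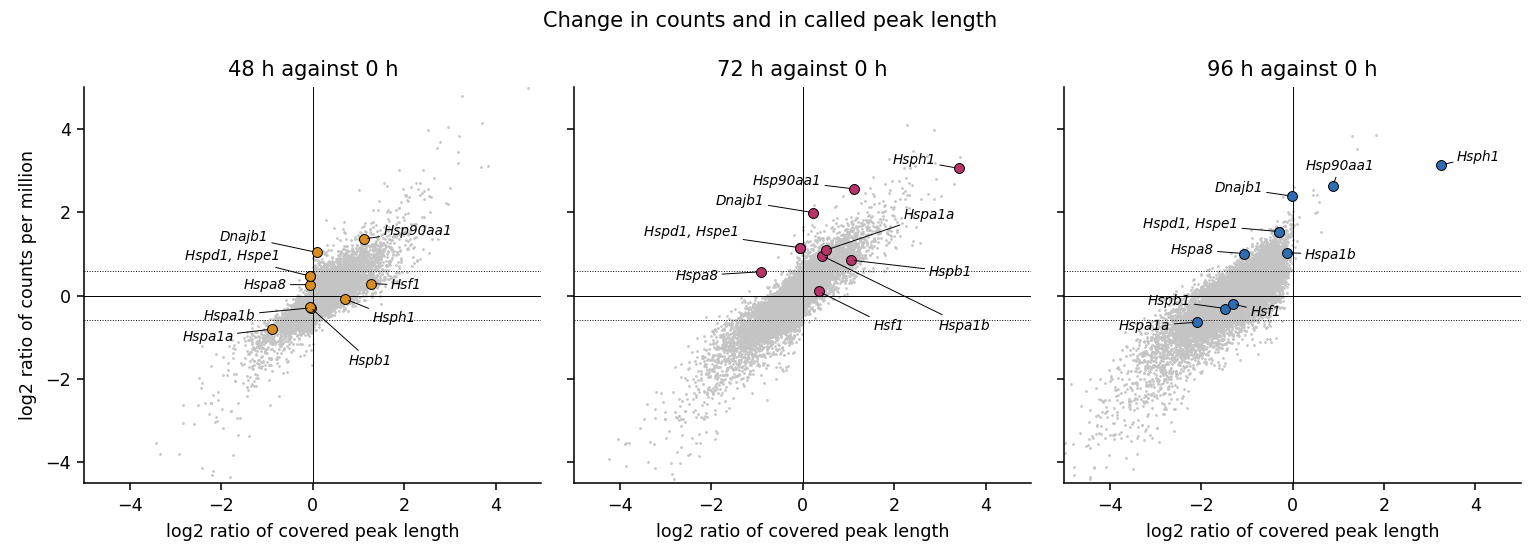
Log2 ratio of CPM to 0 h (y axis) against log2 ratio of called peak length to 0 h (x axis) for the genes tested (grey) and the 10 heat shock genes (colored), in 1 panel for each of 48, 72 and 96 h; dotted lines mark 1.5-fold, and 3, 11 and 15 genes lie outside the axes. Dnajb1 lies near 0 on the x axis and at 1.04, 1.99 and 2.39 on the y axis, while Hsph1 lies far to the right at 72 and 96 h.

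At matched depth the share of nuclei open at Hsph1, Dnajb1, Hsp90aa1, Hspa8, Hspa1b and the shared Hspd1 and Hspe1 peak was higher at 96 h than at 0 h, and at Hspa1a, Hspb1 and Hsf1 it was lower. Depth was matched and called length was not. The counts of a 96 h nucleus fall on 60.9 Mb of peaks and those of a 0 h nucleus on 153.6 Mb, and no share over all genes was computed to set beside these values. A nucleus was called open at a gene when it held at least 1 count there, and each nucleus was thinned to 2000 counts, which left 3719, 3579, 3620 and 2484 nuclei and excluded 258, 313, 636 and 740 shallower ones. Hsph1 was open in 5.60% (4.88 to 6.38) of nuclei at 0 h, 4.93% at 48 h, 28.7% at 72 h and 30% (28.2 to 31.8) at 96 h. Dnajb1 was open in 13.5%, 21.7%, 33.1% and 39.8%, and Hsp90aa1 in 8.78%, 18.5%, 32.3% and 33.2%. Hspd1 and Hspe1 were open in 25.3%, 29.9%, 38.9% and 46.3%. Hspa8 had the highest share in each library, 45.2%, 48.0%, 50.9% and 58.9%. Its gain in percentage points was smaller than those of Hsph1, Dnajb1, Hsp90aa1 and the Hspd1 and Hspe1 peak. Each of the other genes was open in few nuclei at every time. Hspa1b was open in 3.12%, 2.36%, 4.65% and 5.18%, and Hspa1a in 1.71%, 0.855%, 2.34% and 0.780%. Hspb1 was open in 2.65%, 1.93%, 3.92% and 1.81% and Hsf1 in 4.39%, 5.07%, 4.10% and 3.31%, with the 0 and 96 h intervals of both genes overlapping. Unthinned, where the 0 h nuclei are the deepest, the shares at 96 h were below those at 0 h for every gene but Hsph1. Dnajb1 then read 53.4%, 45.6%, 42.8% and 44.2%, Hspa8 83.0% at 0 h and 62.1% at 96 h, and Hsph1 34.7% and 35.8%. The shares count called peaks only, and at Hsph1 and Hsp90aa1 more of the gene was called in the later libraries.

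**Figure D4:**
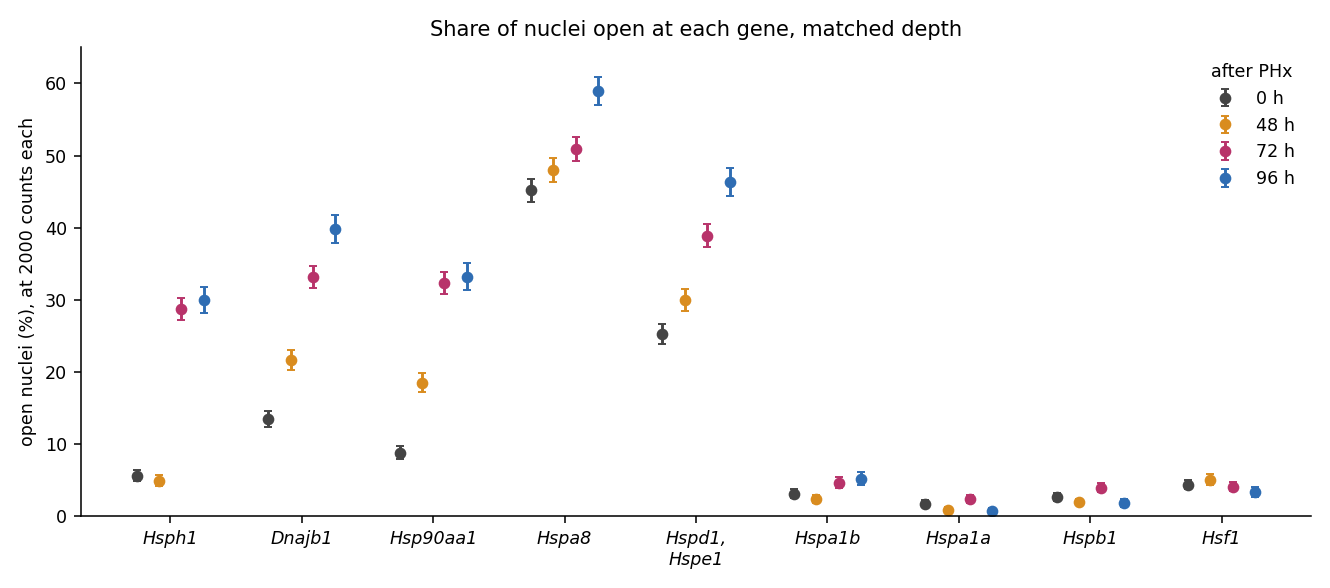
Share of nuclei with at least 1 count at the gene after thinning each nucleus to 2000 counts (y axis, percent, from 0) for 9 separate loci (x axis), with 1 point per library in time order and 95% binomial intervals that cover counting error only. Hsph1 stays near 5% at 0 and 48 h and is near 29% at 72 and 96 h, whereas Dnajb1, Hspd1 with Hspe1 and Hspa8 gain step by step.

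The 5 loci with the widest range, Hsph1, Dnajb1, Hspa8, Hsp90aa1 and Hspd1 with Hspe1, were also counted together in each thinned nucleus, a choice made after their values were seen. At 0 h 4.17% of nuclei (3.55 to 4.86) were open at 3 or more of the 5 loci, and at 48 h 10.4% (9.47 to 11.5). This share was 29.2% (27.7 to 30.7) for the 72 h library and 36.3% (34.4 to 38.2) for the last one. Nuclei open at none fell from 30.6% to 25.4%, 13.9% and 9.90%. The mean number open was 0.974, 1.22, 1.85 and 2.08 of 5, and the median was 1 at 0 and 48 h and 2 at 72 and 96 h. A higher mean in the later libraries follows from the choice of loci and their single shares, and called length was not matched. No number expected from the single shares was computed, and whether loci opened together in a nucleus was not tested.

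Hspa1a had a higher level in nuclei with few counts at hepatocyte markers than in the remaining nuclei of every library. Nuclei whose share of counts at the 10 hepatocyte markers was under 0.25 of their library's median numbered 254, 198, 301 and 148 at 0, 48, 72 and 96 h. They are a range of a score and not a cell type, since 49, 59, 106 and 83 nuclei lay near the limit, and they were shallow, with medians of 3260.5, 2309.5, 1927 and 1637 counts. Endothelial markers summed to 756, 920 and 852 CPM in them at 0, 48 and 72 h against 411, 404 and 469 CPM in the remaining nuclei, and to 206 against 236 CPM at 96 h. Kupffer and myeloid markers summed to 384, 696, 308 and 95.5 CPM in them in time order, against 169, 234, 210.2 and 111 CPM in the rest. Stellate markers summed to 120, 119, 186 and 114 CPM against 79.2, 118, 158 and 133 CPM, and biliary markers to 17.2, 30.1, 39.8 and 40.4 CPM against 13.8, 22.6, 32.98 and 25.4 CPM. Hspa1a was at 99.2 CPM in these nuclei and 6.90 in the rest at 0 h, a ratio of 14.4 (10.9 to 18.7). At 72 h it was at 174 and 12.7 CPM, a ratio of 13.7 (9.95 to 18.6), and at 48 and 96 h at 18.6 and 4.08 and at 25.7 and 4.43 CPM from 13 and 7 counts. Low-marker nuclei gave 12.0% of all Hspa1a counts at 0 h and 27.8% at 72 h, while holding 0.937% and 2.74% of all counts. Hspa1b showed a smaller ratio, 3.85 (2.73 to 5.28), 3.53 (2.0 to 5.80), 3.38 (2.32 to 4.78) and 1.97 (0.888 to 3.79), the last of which takes in 1. At 0 h the ratio was also above 1 for Hsph1, 2.54 (1.88 to 3.37), Hsf1, 1.75 (1.16 to 2.55), and Hsp90aa1, 1.72 (1.28 to 2.25), and the Hsph1 and Hspa1b intervals overlapped. At the later times none of these 3 genes had a ratio whose interval lay above 1, and Hsp90aa1 was at 0.760 (0.596 to 0.957) at 72 h and 0.471 (0.285 to 0.733) at 96 h. Hspd1 and Hspe1 went the other way, with 100.01, 97.4, 190.2 and 275 CPM in these nuclei against 162, 225, 363 and 473 CPM in the rest. Dnajb1 did not separate between them at 0 h (96.9 and 79.2 CPM) and was lower in low-marker nuclei at 72 h, with a ratio of 0.616 (0.476 to 0.784), and at 96 h (224 and 421 CPM). Hspa8 had a ratio of 1.0 at 0 h and was lower in low-marker nuclei at 72 h, 0.714 (0.593 to 0.854), and at 96 h, 0.652 (0.498 to 0.839). Hsph1 went from 77.4 against 30.4 CPM at 0 h to 220.3 against 277 CPM at 96 h. Without low-marker nuclei the log2 ratio of Hspa1a at 72 h was 0.84 instead of 1.09, and the number of the 10 genes past 1.5-fold stayed at 2, 8 and 7. Which cells these nuclei came from was not tested.

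Other chaperone and stress genes, listed by textbook role, had group medians nearer to 0 than the heat shock genes at 72 and 96 h. At 48 h the CCT list, at -0.31, was farther from 0 than the heat shock genes at 0.28. The heat shock genes were chosen by their values in these libraries, and nothing is read from the difference. Per kb of called peak at 96 h, the heat shock median was 1.61 and that of all genes 1.26. On that scale the HSF, cytosolic, CCT, mitochondrial and endoplasmic reticulum lists had medians of 0.94, 1.26, 1.23, 1.03 and 1.25. Over all genes tested, 8.9%, 13.4% and 15.6% were at least 1.5-fold above and 8.18%, 18.2% and 18.3% below at 48, 72 and 96 h. The counts in each list below stand beside those shares, many are near them, and nothing particular to a list is read from them. Per kb of called peak, every gene named in these lists except Dnajb11 and Herpud1 was higher at 96 h than at 0 h, so a lower CPM at 96 h turned on that scale for the others. Of the HSF family, 4 of 6 genes were tested, none was past 1.5-fold above 0 h at any time and Hsf4 was below at 72 h, with medians of -0.26, -0.44 and -0.17. Hsf2, another heat shock factor, measured 93.7, 95.7, 64.3 and 88.6 CPM. Hsf4, a factor known from the lens, read 48.2, 39.7, 27.1 and 40.2 CPM. Hsbp1, which encodes a binding protein of HSF1, read 22.7, 18.7, 20.9 and 29.7 CPM, and Hsf2bp read 32.7, 27.5, 25.6 and 26.4 CPM. Of 33 cytosolic chaperones and co-chaperones, 28 were tested, and 0, 3 and 7 were at least 1.5-fold above and 2, 8 and 6 at least 1.5-fold below 0 h at 48, 72 and 96 h. The medians of that list were -0.21, -0.19 and 0.18. Dnaja1, an HSP70 co-chaperone, read 155, 216, 297 and 349 CPM over a peak length of 20394 to 17581 bp. Hspb8, a small heat shock protein, read 206, 274, 222 and 374 CPM. Hspa4, an HSP110 relative, read 62.3, 39.5, 28.9 and 25.9 CPM with a called length of 10581, 8634, 4679 and 1459 bp, and per kb it went from 5.89 at 0 h to 17.8 at 96 h. The HSP70 cofactor St13 read 55.7, 34.0, 16.6 and 17.2 CPM over 10058, 7824, 2627 and 1315 bp, and per kb it went from 5.54 to 13.1. Hsp90ab1, the constitutive partner of Hsp90aa1 and named here after its values were seen, read 129, 137, 208 and 259 CPM with a called length between 11388 and 12243 bp.

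Of the 8 subunits of the cytosolic chaperonin CCT 7 were tested, and Cct2 at 96 h was the 1 past 1.5-fold, with medians of -0.31, -0.20 and 0.05. Cct8 read 59.8, 70.8, 55.7 and 66.6 CPM and Cct3 35.5, 26.02, 25.7 and 36.0 CPM. Cct4 read 23.8, 17.4, 16.9 and 24.6 CPM and Cct5 67.3, 56.3, 47.2 and 58.5 CPM. Of 9 mitochondrial chaperones and proteases other than Hspd1 and Hspe1, none was past 1.5-fold above 0 h, and 0, 4 and 2 were below, with medians of -0.24, -0.53 and -0.38. Hspa9, the mitochondrial HSP70, read 158, 128, 19.98 and 21.5 CPM, with a called length of 29912, 27647, 2685 and 1564 bp. Grpel1, its nucleotide exchange factor, read 68.0, 56.2, 48.2 and 49.4 CPM. The protease genes Clpp and Htra2 read 26.02, 36.5, 16.3 and 25.0 CPM and 45.6, 54.3, 42.2 and 61.2 CPM.

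Among 18 genes of the endoplasmic reticulum chaperones and the unfolded protein response, 2, 2 and 2 were above and 3, 4 and 5 below, with medians of 0.03, -0.05 and -0.17. Hspa5, the HSP70 of the endoplasmic reticulum, had the highest ratio of the list at 48 h, with 69.9, 218, 320 and 283 CPM, a log2 ratio of 1.63, 2.19 and 2.01. Its called length was 12421, 17139, 14823 and 11539 bp. Calr, a calcium-binding chaperone, read 69.3, 123, 97.8 and 86.9 CPM. Dnajb11, a cofactor of Hspa5, read 589, 76.8, 53.7 and 61.8 CPM, with a called length of 32055, 10601, 8488 and 5325 bp, and Herpud1 read 328, 181, 145 and 211 CPM.

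Immediate early genes, which tissue dissociation is known to switch on, were followed because all hepatocytes were freed by perfusion. Of 13, 1, 2 and 5 were above and 0, 4 and 0 below 0 h, with medians of -0.11, -0.10 and 0.43. Per kb of called peak their median log2 ratio was 0.53 at 72 h, against 0.90 for the 10 heat shock genes and 0.15 over all genes, and 1.19 at 96 h, against 1.61 and 1.26. Fos read 188, 312, 279 and 408 CPM and Klf6 88.3, 133, 173 and 208 CPM, both highest at 96 h. Jund read 483, 351, 309 and 410 CPM and Zfp36 461, 327, 270 and 425 CPM, both highest at 0 h. Per kb of called peak both were highest at 96 h, with 50.3 against 15.4 CPM at 0 h for Jund and 38.3 against 28.04 for Zfp36. The 5 genes above at 96 h were Fos, Fosb, Jun, Atf3 and Klf6. The part of dissociation in the heat shock values was not tested, and with 1 library per time it cannot be told apart from time after PHx.

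**Figure D5:**
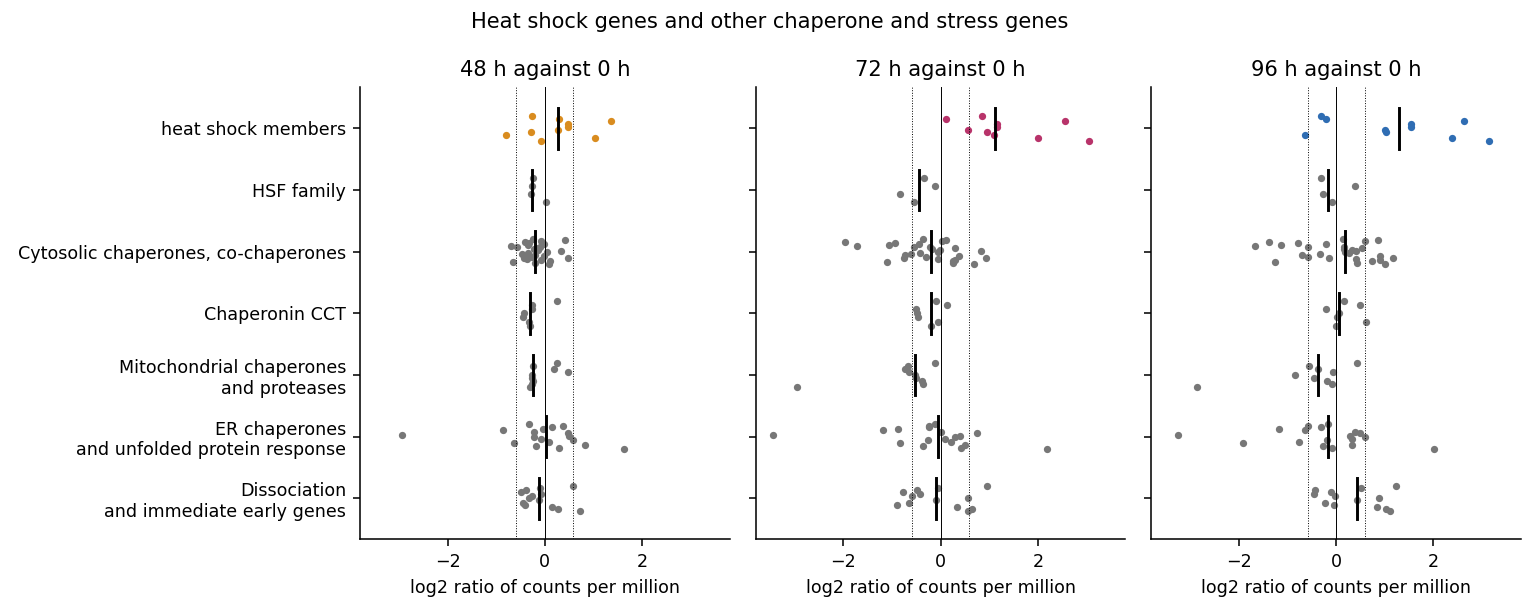
Log2 ratio of CPM to 0 h (x axis) for the 10 heat shock genes (colored) and the tested genes of 6 other lists (grey), in 1 panel for each of 48, 72 and 96 h, with 1 point per gene, black bars at list medians and dotted lines at 1.5-fold. The heat shock genes have medians of 0.28, 1.12 and 1.28, and the other list medians lie between -0.53 and 0.43.

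The 5 genes whose ratios at 48, 72 and 96 h lay closest to the median of the 10 heat shock genes, by Euclidean distance over 3 ratios from 4 libraries, were Cenpf, Ube2ql1, Socs6, Klf5 and Dlgap3. Their distances were 0.11 to 0.14 log2 units, and none shared a peak with a heat shock gene. Cenpf, a centromere protein of dividing cells, read 23.0, 27.7, 48.8 and 53.3 CPM, and Klf5, a transcription factor, 18.8, 21.6, 39.0 and 47.8 CPM. The likeness describes these libraries only.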

How the data were processed

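Nuclei from perfused hepatocytes were profiled in 4 scATAC-Seq libraries. The deposited matrices hold raw counts of transposase cut sites per peak and barcode. Alignment and counting by the authors used Cell Ranger ATAC (version 1.1.0 per the file headers) on build mm10, with peaks called in each library separately. Both ends of a fragment count, and 87.3% to 88.6% of values were even. Counts were summed over barcodes with at least 1000 counts and over every peak touching a gene body (GENCODE vM21) plus 2000 bp upstream, and given per 1000000 counts of those barcodes (CPM). No doublet caller was run and no doublets were removed. Log2 ratios used a pseudocount of 0.5 CPM. Intervals are 95% exact Poisson intervals on counts divided by 2, conditional binomial for ratios and Clopper-Pearson for shares. Genes were tested against a 1.5-fold limit where their mean was at least 20 CPM, and no p-value was computed because each time point had 1 library. Shares of open nuclei are expected values under thinning to 2000 counts. The members and lists were chosen with earlier results of these data known. All 10 members are named, as are the 2 highest and 2 lowest genes at 48 h of each other list and the 5 genes of nearest pattern. Calculations used Python 3.11.15, numpy 2.4.6, pandas 2.3.3 and scipy 1.17.1, and were tested on simulated data. For the log2 ratios another 13 settings were planned and 2 were added after the data were seen. A 2-fold limit for the numbers of genes and other thinning settings for the shares of open nuclei were planned as well.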

Additional observations from a re-analysis of the deposited data

How the results depend on the processing

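No paired analysis was possible because each time point had 1 library. At 72 and 96 h, Dnajb1, Hspd1 with Hspe1 and Hsp90aa1 were past 1.5-fold above 0 h under all 15 alternatives. Under one of them, counts per kb of called peak, 6.9% of all genes passed at 72 h and 93.9% at 96 h. Every alternative uses the libraries whose values chose the genes, so passing is not independent support. The median log2 ratio of the 10 genes (0.28, 1.12 and 1.28 at 48, 72 and 96 h) became 0.37, 1.46 and 1.86 with counts reduced to presence or absence. It was 0.17, 0.90 and 1.61 per kb of called peak, against -0.24, 0.15 and 1.26 over all genes. With peaks in regions called in every library it was 0.17, 1.21 and 1.18, and 0.17, 1.21 and 1.73 with peaks weighted by their share inside the window. With peaks near start sites alone it was 1.0 at 72 h and 1.54 at 96 h, the latter over 9 genes, since Hspa1a had no such peak. Scaling to regions called in every library gave 1.18 at 96 h, and setting the median of all genes to 0 gave 0.36 at 48 h. The 2 settings added after the data were seen gave 0.11 at 48 h and 0.94 at 72 h in nuclei of 2000 to 6000 counts (396, 745, 1999 and 1667 nuclei), and 0.46 at 48 h and 0.50 at 96 h with genes of near-equal called length centered on 0. The number of genes above 0 h at 48 h was 1 with presence or absence (Hspa8 at 0.64, in place of Dnajb1 and Hsp90aa1), 1 per kb or with weighted peaks (Dnajb1, with Hsp90aa1 at 0.24 and 0.58) and 4 with near-equal centering, and at 72 h it was 5 per kb. The number below at 48 h was 2 per kb and in nuclei of 2000 to 6000 counts, and 0 at a 2-fold limit, near start sites or with weighted peaks. Below at 72 h it was 1 near start sites. Below at 96 h it was 0 per kb, with every barcode, at a 2-fold limit, in regions called in every library, near start sites or with weighted peaks, and 3 with near-equal centering. Among log2 ratios past 1.5-fold, those that changed sign were of Hspa1a (per kb 0.10 at 48 h and 1.46 at 96 h, with 5 kb upstream -0.073 and near start sites -1.02 at 72 h, in regions called in every library 0.33 at 96 h), Hspa1b (near start sites -0.49 at 72 h), Hspb1 at 72 h (per kb -0.20, weighted -0.0044) and Hsph1 per kb (-0.36 at 72 h, -0.11 at 96 h). Among those within 1.5-fold, the sign also turned for Hsf1 (0.29 at 48 h, -0.99 per kb, -0.32 in regions called in every library and -0.00051 weighted; 0.10 at 72 h, -0.25 per kb, -0.33 in nuclei of 2000 to 6000 counts, -0.070 with presence or absence and -0.066 in regions called in every library; -0.20 at 96 h, 1.11 per kb), for Hspb1 at 96 h (-0.31, with 1.17 per kb and 0.022 in nuclei of 2000 to 6000 counts) and for Hsph1 at 48 h (-0.081, with 0.096 under near-equal centering). For Hsph1 the per kb value follows from the longer called peak, and otherwise the cause was not tested. Depth at 96 h limits Hspa1a and Hspb1, with 72 and 175 counts.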
